A study of Rattus norvegicus with 12 samples.

Results

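Collagen and laminin chains are the structural proteins of basement membranes and fibrillar matrix, and 51 genes for them were followed through the brain RNA of 12 rat libraries. They were chosen by name, as symbols of the form Col or Lam with a chain number, and by their total count, which had to reach at least 50 over the 12 libraries. Of 31177 genes in the count table, 53 carried such a name and 51 passed, 41 of them collagen chains and 10 laminin chains. Just outside the minimum were Col6a4 with a total count of 42 and Col22a1 with 43, and just inside were Col28a1 with 69 and Col10a1 with 90. Because the total count selected the members, it is given as a description and supports nothing.

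The study measured brain RNA in 3 groups of 4 libraries. Sham is the control group, AD is a model of Alzheimer's disease, and AD-HFD is the same model with a high-fat diet. The labels state no strain, sex, age, brain region, way of making the model or length of the diet, and do not say that the libraries come from separate animals, so p-values measure only the spread between these samples. The question stated for the series is what the model and the added metabolic stress change in brain transcripts. The diet without the model was not analysed here. A library is called by its group with its number, for example AD-3.

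In the brain, type IV collagen and laminins form the basement membrane between endothelial cells, pericytes and the end-feet of astrocytes. Each collagen molecule winds several alpha chains into a helix, and each laminin joins an alpha, a beta and a gamma chain, so that partner chains are made together in the endoplasmic reticulum before they are secreted. Fibrillar collagens such as types I and III are made mostly by fibroblasts of the meninges and of vessel walls, while the neural tissue itself holds few of them.

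The partner genes Col4a1 and Col4a2 start back to back, and the stretch between their starts is shown because these were the members with the largest fold changes. In the RefSeq annotation of the rat build GRCr8, their start sites on chromosome 16 lie 76 bases apart, at chr16:84885521-84885596, shown on the plus strand, which reads toward Col4a1. Capitals mark a GC box, which is GGGCGG on either strand and so appears here as CCGCCC.
Col4a1 and Col4a2: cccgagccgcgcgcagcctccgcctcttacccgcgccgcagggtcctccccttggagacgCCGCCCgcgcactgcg
The pair Col4a3 and Col4a4 on chromosome 9 also starts back to back, with 412 bases between the starts. The 88 bases that both promoter windows share (chr9:91323740-91323827, plus strand) are shown too. They hold no GC box, but the whole promoter window of Col4a3 does, while that of Col4a4 does not.
Col4a3 and Col4a4: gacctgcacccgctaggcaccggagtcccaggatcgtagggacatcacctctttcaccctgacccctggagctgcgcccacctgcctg
The 100 bases before the starts of Lama5 (chr3:187695975-187696074, minus strand) and Col18a1 (chr20:11473545-11473644, plus strand) are shown as examples from other vascular basement membrane chains. Each is written in the direction of its gene, with GC boxes in capitals. Not all such chains have a GC box: the promoter window of Lamc1 held it, and those of Lama4 and Col15a1 did not.
Lama5: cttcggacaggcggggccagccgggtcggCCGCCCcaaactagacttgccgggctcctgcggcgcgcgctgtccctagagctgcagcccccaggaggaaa
Col18a1: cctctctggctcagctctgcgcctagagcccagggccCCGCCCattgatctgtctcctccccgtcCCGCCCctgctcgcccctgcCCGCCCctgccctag
Promoter windows of 300 bases, from 250 before to 50 after the start, were found for 41 of the 51 members. A GC box on either strand was in 58.5% of these windows, against 34.9% of the windows of 27457 genes. The letters CCAAT were in 31.7% against 37.7%, and TATAAA in 12.2% against 14.3%. Among the 16 windows of members that rose in AD-HFD against Sham, as given below, 62.5% held a GC box. These are letter matches and not measured binding.

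Some libraries stood apart from their groups, and this touches several members. The smallest total count was 26668974 (AD-4) and the largest 35351792 (Sham-1), and levels are in CPM, counts scaled to the TMM-adjusted library size. Markers of astrocytes and oligodendrocytes were present in every library, so the brain label matched its markers. The summed CPM of 12 choroid plexus markers was 4817 in Sham-2, 4667 in Sham-3, 10960 in AD-HFD-1 and 579 in AD-HFD-2, and from 4.18 to 33.8 in the other libraries. AD-1, AD-2 and AD-4 had thalamic marker sums of 2148, 644 and 1528 CPM, against 179 in AD-3 and from 72.2 to 149.8 in Sham. The AD-2 sum came mostly from Slc17a6, Calb2 and Tcf7l2, at 278, 213 and 99.1 CPM. Of the thalamic markers in AD-2, Rgs16 (10.1 CPM) was within the Sham range and Prkcd (8.96 CPM) below it, while the others were above it. The summed CPM of 7 cortical excitatory neuron markers was from 1572 to 2115 in Sham, 141, 35.8, 979 and 73.6 in AD and 373, 626, 1571 and 338 in AD-HFD. Endothelial markers (11 of 12 listed were in the table) summed to between 316 and 368 CPM in Sham, between 432 and 900 in AD and between 647 and 2985 in AD-HFD, and Cldn5, a defining marker, was at 0 in all but 2 libraries. In whole-tissue RNA, more cells of a type and more RNA per cell cannot be told apart.

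The summed level of all 51 members was 421 ± 79.9 CPM in Sham, 626 ± 289 CPM in AD and 2068 ± 1554 CPM in AD-HFD (SD, n = 4 each). AD-HFD-4, at 4342 CPM, was the highest library and AD-HFD-3, at 833 CPM, the lowest of its group. AD-3, at 1057 CPM, was the highest of the AD libraries and the only one above AD-HFD-3. Enough counts for testing were present for 48 of the members, out of 18850 genes tested. Those without enough were Col10a1, Col17a1 and Col28a1. Col17a1, a transmembrane collagen of epithelial hemidesmosomes, had 8, 4, 9 and 0 counts in the Sham libraries, 0, 2, 0 and 3 in AD and 30, 52, 17 and 6 in AD-HFD. The other two stayed at or below 27 counts in every library.

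In AD-HFD against Sham, 21 of the 48 tested chains rose and none fell at an adjusted p under 0.05 (edgeR's quasi-likelihood test, adjusted by Benjamini-Hochberg over all tested genes). Over all genes, 19.7% rose and 12.9% fell by the same rule. The largest rises were those of the vascular basement membrane chains Col4a1, Col4a2, Col18a1, Lamc1, Lama4 and Lama5, with Col7a1, Col15a1 and Col3a1. At an unadjusted p under 0.05 there were 23 higher and 3 lower members, where all genes gave 25.8% and 19.6%. The 4 AD-HFD libraries lay entirely above the 4 Sham libraries for 19 chains and entirely below for 4, against 18.9% and 16.2% of all genes. The median log2 fold change was 1.17 over the chains and 0.03 over all genes tested, and 40 of the 48 chains had a positive value. The 2 libraries at the extremes mattered for these counts. AD-HFD-4 was the highest of its group for 16 of the 21 chains that rose, and AD-HFD-3 was the lowest for 12. AD-HFD-4 had the lowest sum of cortical neuron markers in its group, at 338 CPM, and AD-HFD-3 the highest, at 1571 CPM, next to the Sham minimum of 1572 CPM, and the part of brain region in these rises was not tested. Without AD-HFD-4, 18 chains rose, 16 of them among the 21, and the fold change of 12 of the 21 moved by more than 1.5 times. Without AD-HFD-3, all 21 stayed called. Without the 4 libraries with choroid plexus transcripts, which leaves 2 Sham and 2 AD-HFD libraries, no chain and none of 19522 genes passed in AD-HFD against Sham, while 25 chains and 3987 genes had an unadjusted p under 0.05. The log2 fold changes of the 21 were then 0.80 to 5.18, and 18 of them were higher than with all libraries (adjusted p 0.176 to 0.410). The AD-HFD libraries left were AD-HFD-3 and AD-HFD-4. AD-HFD-4, the highest of its group for 16 of the 21, weighs more in that smaller group. The higher values therefore cannot be read as rises apart from choroid plexus, whose part was not tested.

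**Figure D1:**
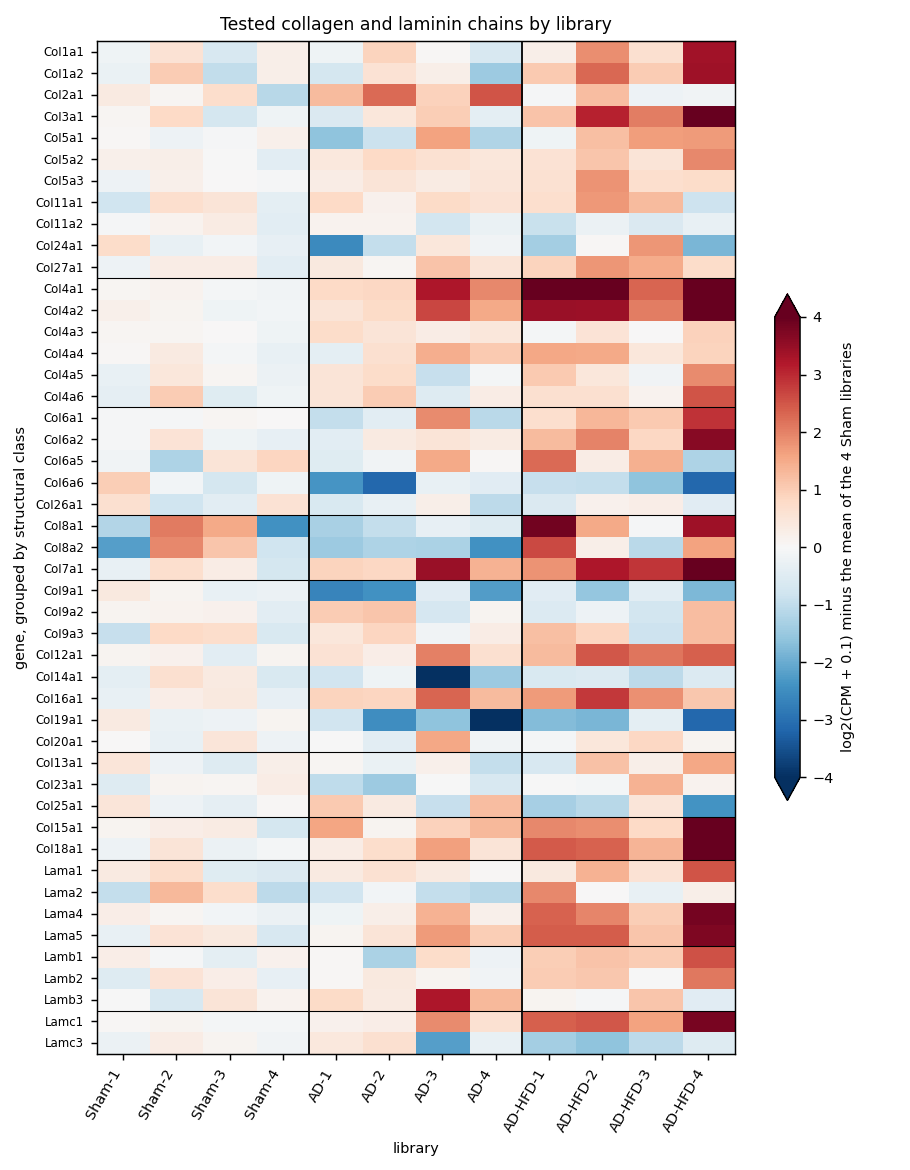
Level of 47 of the 48 tested chains (lines, grouped by structural class) in each of the 12 libraries (columns), as log2(CPM + 0.1) minus the mean of the 4 Sham libraries, with red for higher and blue for lower values and the colour scale ending at 4 in either direction. AD-HFD-4 is the highest library for Col4a1, Col4a2, Col15a1, Col18a1, Lama4, Lama5 and Lamc1, and AD-3 differs from the other AD libraries.

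**Figure D2:**
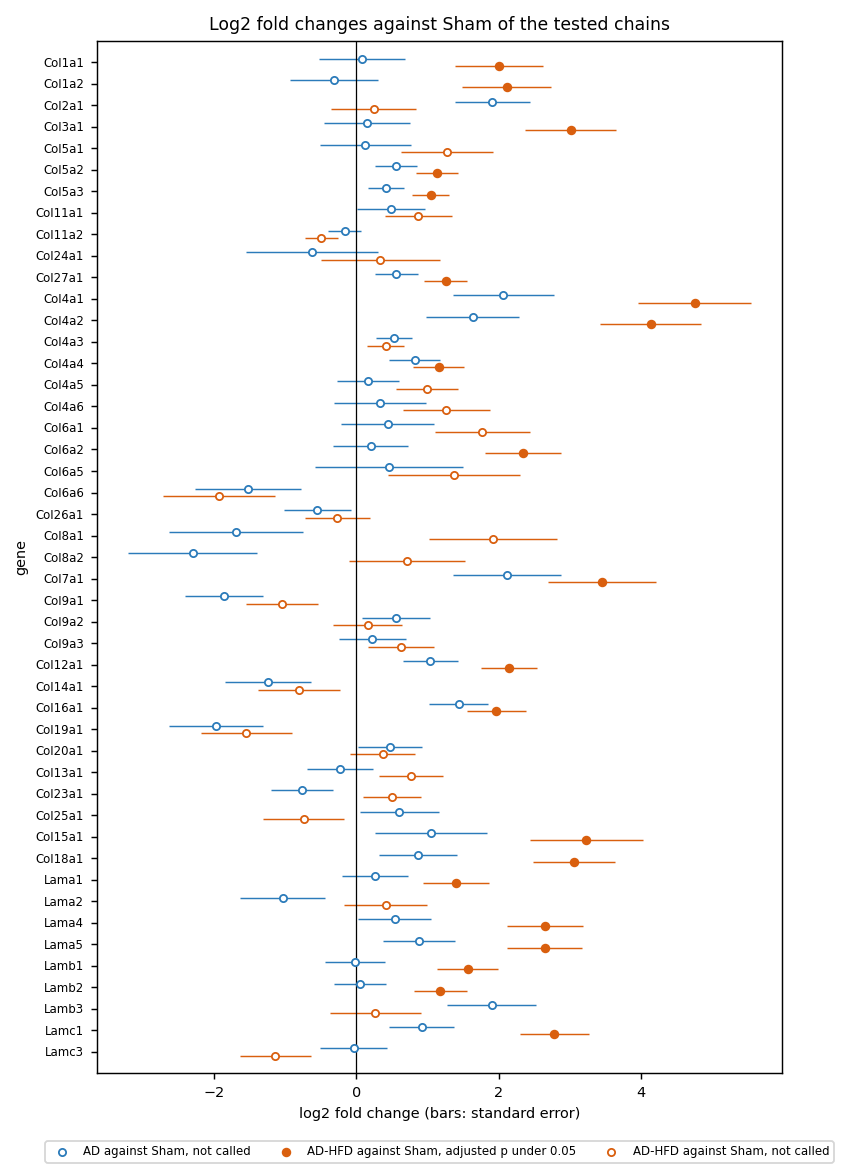
Log2 fold changes (points) with standard errors (bars) of 47 of the 48 tested chains for AD against Sham in blue and AD-HFD against Sham in orange, where filled points are the 21 chains with an adjusted p under 0.05. Col4a1 and Col4a2 lie farthest to the right, at 4.76 and 4.14, and no AD against Sham point is filled.

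Type IV collagen is the network-forming collagen of every basement membrane. In AD-HFD against Sham, 3 of its 6 chains rose (50%, against 19.7% of all genes). Col4a1 encodes the alpha-1 chain, which joins with the alpha-2 chain in vessels. In the order of the replicate numbers, as for every gene below, it stood at 22.1, 23.4, 19.7 and 19.0 CPM in the Sham libraries, 36.2, 37.2, 199.7 and 80.2 CPM in the AD libraries and 413, 356, 105 and 1416 CPM in the AD-HFD libraries. Every AD and AD-HFD library was above every Sham library, and AD-3 was above AD-HFD-3. The mean went from 21.1 ± 2.04 CPM in Sham to 572 ± 578 CPM in AD-HFD (SD, n = 4), a rise of 4.76 ± 0.79 on the log2 scale or 27.2-fold (adjusted p = 0.00313). Without AD-HFD-4 the log2 fold change was 3.79.

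Col4a2, the partner chain, had 17.4, 16.3, 13.3 and 14.0 CPM in Sham, 21.8, 26.1, 97.8 and 43.5 CPM in AD and 167, 163, 62.7 and 683 CPM in AD-HFD. The libraries kept the pattern of Col4a1, with AD-3 and AD-HFD-4 the highest of their groups and no overlap of either group with Sham. It rose by 4.14 ± 0.71 (17.6-fold, adjusted p = 0.00335), and by 3.11 without AD-HFD-4. Together, Col4a1 and Col4a2 made up 8.77% ± 1.41 of the summed CPM of all members for Sham, 19.6% ± 7.69 for AD and 34.9% ± 11.8 for AD-HFD (SD, n = 4).

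Col4a4, a chain best known from the basement membranes of kidney and inner ear, rose by 1.16 ± 0.36 (adjusted p = 0.0296), from 8.88, 11.1, 8.20 and 7.0 CPM in Sham to 25.6, 24.8, 11.9 and 16.1 CPM in AD-HFD, with 6.55, 13.7, 23.8 and 17.8 CPM in AD. The Sham and AD-HFD libraries did not overlap, while AD overlapped both. Its call was lost without any 1 of AD-HFD-1, AD-HFD-2, Sham-1, Sham-3 or Sham-4 (adjusted p 0.0664 to 0.0853). Its back-to-back neighbour Col4a3 had a log2 value of 0.41 ± 0.26, Col4a5 one of 0.99 ± 0.44 and Col4a6 one of 1.27 ± 0.61, none of which passed (adjusted p 0.0971 to 0.237).

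The share of the 2 partner chains was compared within libraries, where depth cancels. Transcript lengths were not used, so a ratio compares groups and not the levels of the chains. Counts of Col4a1 were 1.28, 1.43, 1.48 and 1.36 times those of Col4a2 in the Sham libraries, 1.66, 1.43, 2.04 and 1.84 times in AD, and 2.47, 2.18, 1.67 and 2.07 times in AD-HFD. All AD-HFD ratios were above all Sham ratios, with AD between and overlapping both. The means were 1.39 ± 0.089 for Sham, 1.74 ± 0.262 for AD and 2.10 ± 0.328 for AD-HFD (SD, n = 4). In the two-sided exact permutation test, AD-HFD against Sham gave p = 0.0286, the smallest that 4 against 4 libraries allow, and 0.171 after Benjamini-Hochberg adjustment over 6 such tests. The ratio of Col1a1 to Col1a2, the type I partners, was 1.01 ± 0.233 for Sham, 1.32 ± 0.368 for AD and 0.756 ± 0.166 for AD-HFD. Its 3 exact permutation tests gave p from 0.0571 to 0.229 (adjusted 0.171 to 0.229), so no shift of a ratio passed after adjustment.

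**Figure D3:**
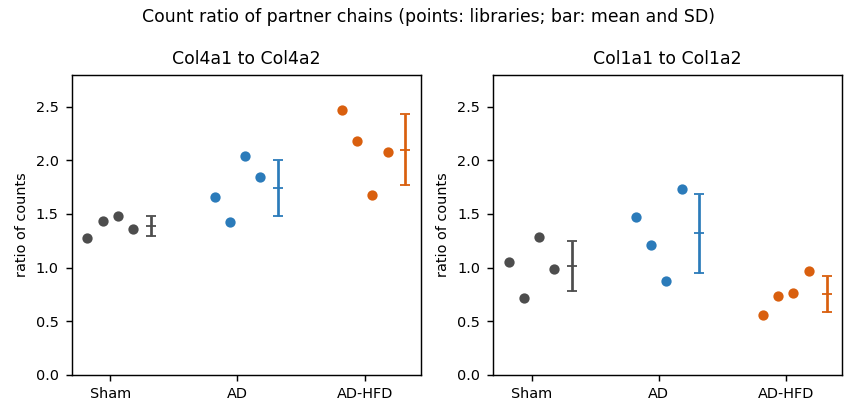
Ratio of the counts of partner chains in each library (points, replicates 1 to 4 from left) with the group mean and SD (bars, n = 4), for Col4a1 to Col4a2 on the left and Col1a1 to Col1a2 on the right. The Col4a1 to Col4a2 means are 1.39, 1.74 and 2.10 in Sham, AD and AD-HFD, while the Col1a1 to Col1a2 points of the 3 groups overlap.

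Both endostatin-type collagens, which sit in vascular basement membranes and release anti-angiogenic fragments, rose in AD-HFD against Sham. Col18a1 stood at 8.41, 13.7, 8.20 and 9.04 CPM in Sham, 12.0, 15.7, 30.5 and 13.8 CPM in AD and 53.1, 50.1, 24.9 and 202 CPM in AD-HFD. All AD-HFD libraries were above all Sham libraries, and AD-3 was again above AD-HFD-3. It rose by 3.07 ± 0.58 (8.38-fold, adjusted p = 0.00433), and by 2.12 without AD-HFD-4.

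Col15a1 was at 1.99, 2.27, 2.35 and 1.10 CPM in Sham, 5.68, 2.01, 3.60 and 4.72 CPM in AD and 7.33, 7.04, 3.31 and 55.3 CPM in AD-HFD. A large part of its difference came from AD-HFD-4: the log2 fold change of 3.24 ± 0.80 (adjusted p = 0.0119) was 1.61 without that library, where it still passed (adjusted p = 0.0204).

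Among the laminin alpha chains, Lama4, Lama5 and Lama1 rose in AD-HFD against Sham and Lama2 did not pass. Lama4, the alpha chain that endothelial cells make throughout the vessel tree, stood at 15.4, 13.4, 11.9 and 10.8 CPM in Sham, 11.3, 15.1, 33.8 and 14.9 CPM in AD and 66.5, 49.2, 25.6 and 184 CPM in AD-HFD. The AD-HFD libraries were all above Sham, while AD overlapped Sham except for AD-3. Lama4 rose by 2.66 ± 0.54 (6.30-fold, adjusted p = 0.00547), and by 1.87 without AD-HFD-4.

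Lama5, another alpha chain of vessel walls, stood at 5.84, 10.4, 9.42 and 4.55 CPM in Sham, 7.72, 10.3, 23.4 and 14.3 CPM in AD and 38.6, 38.7, 15.4 and 97.2 CPM in AD-HFD. No AD-HFD library reached down to Sham, and AD-3 was above AD-HFD-3. The rise was 2.65 ± 0.53 (6.28-fold, adjusted p = 0.00516), and 2.03 without AD-HFD-4.

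Lama1, the alpha chain of early and of meningeal basement membranes, had 3.94, 5.08, 2.18 and 2.04 CPM in Sham, 3.98, 4.73, 4.0 and 3.16 CPM in AD and 4.11, 8.22, 4.63 and 18.1 CPM in AD-HFD. Sham-2 was above AD-HFD-1 and AD-HFD-3, so the groups overlapped. Its log2 fold change of 1.40 ± 0.46 passed (adjusted p = 0.0378), but the call was lost without any 1 of AD-1, AD-HFD-2, AD-HFD-4, Sham-1, Sham-3 or Sham-4 (adjusted p 0.0502 to 0.143). Without AD-HFD-4 the value was 0.77.

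Lama2, the alpha chain of muscle and of the parenchymal side of brain vessels, followed another order of libraries. It stood at 5.99, 28.5, 19.1 and 5.59 CPM in Sham, 6.79, 10.7, 5.91 and 5.30 CPM in AD and 43.9, 11.7, 9.38 and 13.6 CPM in AD-HFD. The 3 highest libraries, AD-HFD-1, Sham-2 and Sham-3, were those with the highest choroid plexus marker sums. The log2 fold change in AD-HFD against Sham was 0.41 ± 0.59 (adjusted p = 0.611). Leptomeningeal fibroblast markers (12 of 12 in the table) summed to 522 CPM in Sham-2 and 496 CPM in AD-HFD-1, of which Igf2 alone made up 396 and 334 CPM. Their sum was highest in AD-HFD-4, at 820 CPM with 86.5 CPM of Igf2, a library of lower Lama2. The part of either cell type in the level of Lama2 was not tested.

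The gamma-1 chain is common to most laminins. Lamc1 stood at 27.6, 29.2, 25.6 and 25.7 CPM in Sham, 30.3, 32.4, 100.4 and 41.6 CPM in AD and 141, 150.1, 82.9 and 373 CPM in AD-HFD. Sham spanned a narrow range, and all 8 other libraries lay above it. The rise in AD-HFD against Sham was 2.79 ± 0.48 (6.90-fold, adjusted p = 0.00342).

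Lamb1, the beta chain of many laminin trimers, stood at 35.1, 28.6, 22.1 and 33.1 CPM in Sham, 30.4, 12.2, 48.8 and 25.6 CPM in AD and 58.7, 64.2, 59.3 and 171 CPM in AD-HFD. AD-HFD lay above both other groups, and AD surrounded Sham. Lamb1 rose by 1.57 ± 0.43 in AD-HFD against Sham (adjusted p = 0.0180), but its call was lost without Sham-3 (log2 1.45, adjusted p = 0.0517) or AD-HFD-4 (log2 1.03, adjusted p = 0.0557).

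Lamb2, the beta chain of mature vessel and synaptic basement membranes, stood at 25.7, 53.5, 43.7 and 29.2 CPM in Sham, 37.7, 47.6, 39.3 and 33.2 CPM in AD and 73.4, 76.9, 36.4 and 158 CPM in AD-HFD. AD-HFD-3 fell within the Sham range. The rise was 1.18 ± 0.37 (adjusted p = 0.0311), and the call was lost without any 1 of Sham-1, Sham-3, Sham-4, AD-HFD-2 or AD-HFD-4 (adjusted p 0.0557 to 0.108).

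Lamb3, a beta chain of the laminins of epithelial anchorage, had AD-3 as its highest library. It stood at 3.39, 2.57, 19.5 and 5.01 CPM in AD, 1.96, 1.21, 2.82 and 2.18 CPM in Sham and 2.14, 1.91, 4.31 and 1.40 CPM in AD-HFD. By edgeR's quasi-likelihood test on all 12 libraries Lamb3 did not pass in any comparison, while DESeq2 called it higher in AD than in Sham (log2 1.88, adjusted p = 0.0205) and lower in AD-HFD than in AD (log2 -1.65, adjusted p = 0.0423). Lamc3, a gamma chain of cortical development, had 3.06 ± 0.545 CPM in Sham and 1.39 ± 0.513 CPM in AD-HFD (SD, n = 4; log2 -1.14 ± 0.50, adjusted p = 0.0945), with the 2 groups not overlapping.

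**Figure D4:**
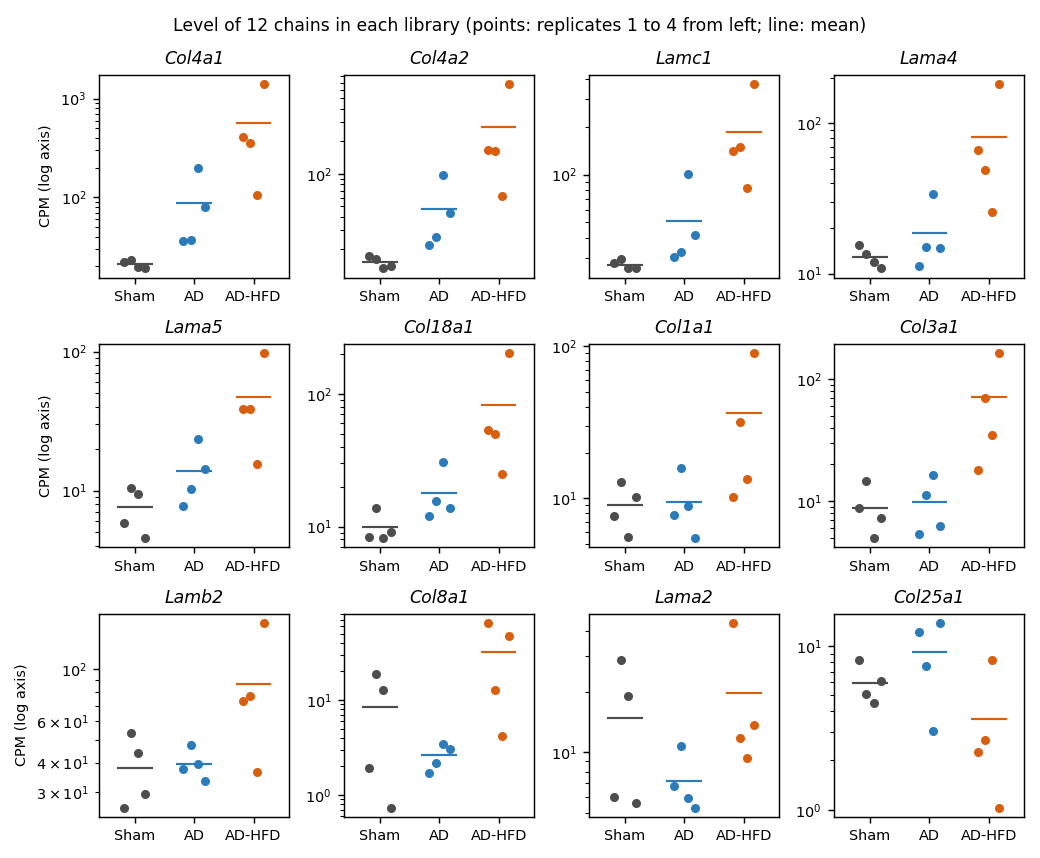
CPM of 12 chains in each library on log axes (points, replicates 1 to 4 from left in each group; line, group mean). Col4a1 runs from about 21.1 CPM in Sham to 572 CPM in AD-HFD on average, while Col8a1 and Lama2 are highest in AD-HFD-1 and raised in Sham-2 and Sham-3.

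Of the 11 fibrillar collagens, 6 rose in AD-HFD against Sham (54.5%, against 19.7% of all genes). Col3a1, the fibrillar collagen of vessel walls and soft connective tissue, stood at 8.68, 14.4, 4.97 and 7.20 CPM in Sham, 5.40, 11.2, 16.3 and 6.20 CPM in AD and 18, 70.5, 34.5 and 163 CPM in AD-HFD. AD-HFD was above both other groups in every library, and AD and Sham overlapped. Col3a1 rose by 3.02 ± 0.64 (8.08-fold, adjusted p = 0.00639), and by 2.22 without AD-HFD-4.

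Col1a1 and Col1a2 encode the chains of type I collagen, the main collagen of meninges and scar. Col1a1 stood at 7.60, 12.8, 5.55 and 10.2 CPM in Sham, 7.72, 15.9, 8.92 and 5.48 CPM in AD and 10.2, 31.6, 13.4 and 90.1 CPM in AD-HFD. Col1a2 stood at 7.22, 17.9, 4.32 and 10.3 CPM in Sham, 5.27, 13.2, 10.2 and 3.16 CPM in AD and 18.2, 43.0, 17.6 and 93.4 CPM in AD-HFD. Both were highest in AD-HFD-4 and AD-HFD-2, and for both the AD-HFD libraries overlapped Sham. Col1a1 rose by 2.0 ± 0.62 (adjusted p = 0.0284) and Col1a2 by 2.11 ± 0.62 (adjusted p = 0.0240). The call of Col1a1 was lost without any 1 of Sham-1, Sham-3, Sham-4, AD-HFD-2 or AD-HFD-4 (adjusted p 0.0523 to 0.120), with a log2 value of 1.03 without AD-HFD-4. The call of Col1a2 was lost without any 1 of Sham-1, Sham-3, Sham-4 or AD-HFD-4 (adjusted p 0.0591 to 0.0870), with a value of 1.40 without AD-HFD-4.

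Smaller rises were seen for Col27a1, Col5a2 and Col5a3, fibrillar chains of which the type V ones help set fibril width. Col5a2 stood at 9.67, 9.97, 8.44 and 6.26 CPM in Sham, 11.3, 14.7, 13.0 and 11.5 CPM in AD and 12.7, 18.3, 12.1 and 32.5 CPM in AD-HFD. Col5a3 stood at 11, 14.6, 12.9 and 12.3 CPM in Sham, 15.7, 18.3, 15.9 and 17.6 CPM in AD and 19.2, 44.3, 19.9 and 21.1 CPM in AD-HFD. For both, every AD and AD-HFD library was above every Sham library. For Col5a3 the 3 groups did not overlap at all, with AD between the others. Col5a2 rose by 1.14 ± 0.30 (adjusted p = 0.0156; 0.0511 without Sham-4, log2 1.01) and Col5a3 by 1.04 ± 0.26 (adjusted p = 0.0115). Col27a1, at 5.52, 7.86, 7.82 and 4.75 CPM in Sham, 8.31, 6.74, 14.2 and 9.11 CPM in AD and 11.8, 21.6, 18.1 and 10.6 CPM in AD-HFD, rose by 1.26 ± 0.30 (adjusted p = 0.0106). The fibrillar chains Col5a1, Col11a1, Col11a2, Col24a1 and Col2a1 did not pass.

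Markers of several cell types were also highest in AD-HFD-4, the library with the highest levels of 16 of the 21 chains within its group. Red blood cell markers (5 of 7 in the table) summed to 4207 CPM there, against 159 to 361 CPM in Sham, 271 to 611 CPM in AD and 253 to 1138 CPM in the other AD-HFD libraries. Leptomeningeal markers summed to 820 CPM there, against 79.1 to 522 CPM in Sham, 48.7 to 109 CPM in AD and 119.7 to 496 CPM in the other AD-HFD libraries. Of these 12 markers, 7 rose and 0 fell in AD-HFD against Sham, where 19.7% of all genes rose and 12.9% fell. Slc22a6, Slc6a13 and Igf2 had negative log2 values, -1.03, -0.74 and -0.51, that did not pass. Macrophage and leukocyte markers (9 of 9 in the table) summed to 252 CPM there, against 3.61 to 7.86 CPM in Sham, 29.0 to 48.0 CPM in AD and 29.2 to 124.5 CPM in the other AD-HFD libraries. Pericyte and smooth muscle markers (12 of 12) were highest in AD-HFD-2, at 795 CPM, and AD-HFD-4, at 767 CPM, against 184 to 258 CPM in Sham and 237 to 334 CPM in AD. Tagln alone made up 450 CPM of the sum in AD-HFD-2. In AD-HFD against Sham, 8 of these 12 markers rose and 0 fell. The pericyte markers Rgs5 and Vtn had negative log2 values, -0.59 and -0.83, that did not pass. The part of these cell types in the rises of the chains was not tested.

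Set against the summed endothelial markers of the same library, Col4a1 stood at 6.24% ± 0.231 for Sham, 14.0% ± 7.56 for AD and 35.7% ± 13.8 for AD-HFD (SD, n = 4). Its values in the AD-HFD libraries were 36.5%, 42.8%, 16.2% and 47.4%, all above the Sham range of 5.91% to 6.45%. Lamc1 stood at 8.03% ± 0.0721, 8.41% ± 2.37 and 13.9% ± 2.74 in the same order of groups. Lama4 stood at 3.82% ± 0.474, 3.14% ± 0.577 and 5.48% ± 1.02, and Col18a1 at 2.90% ± 0.576, 3.06% ± 0.345 and 5.33% ± 1.31. Col4a2 stood at 4.51% ± 0.371, 7.69% ± 3.24 and 16.7% ± 5.76, and Lama5 at 2.23% ± 0.790, 2.40% ± 0.720 and 3.43% ± 0.934. For Lama4 and Lama5, AD-HFD-3 lay within the Sham range, at 3.96% and 2.39%. For Col4a2, Col18a1 and Lamc1, every AD-HFD library was above every Sham library. These ratios were chosen after the values were seen and carry no test. Slc2a1, the glucose transporter of the blood-brain barrier, was the marker with the highest level in this sum, at 109 to 118 CPM in Sham. It made up 395 of the 647 CPM in AD-HFD-3. In AD-HFD against Sham, 8 of the 10 tested endothelial markers rose, with Kdr, Esam and Cdh5 at log2 3.57, 3.16 and 3.03. Slco1a4 and Mfsd2a did not pass, at log2 -0.63 and -0.09. The ratios therefore depend on which markers are summed, and ratios to single markers were not computed.

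**Figure D5:**
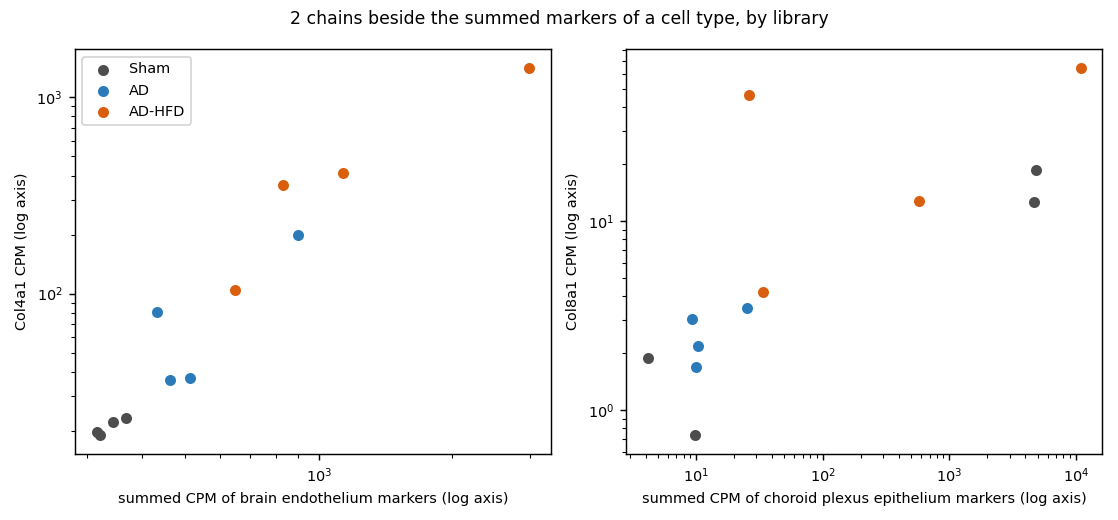
Col4a1 CPM against the summed CPM of 11 brain endothelium markers on the left and Col8a1 CPM against the summed CPM of 12 choroid plexus markers on the right, each point 1 of the 12 libraries, all axes logarithmic. AD-HFD-4 is the upper right point on the left, at 1416 CPM of Col4a1 and a marker sum of 2985 CPM, and on the right it has 46.5 CPM of Col8a1 at a low choroid plexus sum of 26.4 CPM.

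Col8a1 and Col8a2, short-chain network collagens of vessel walls and cornea, varied widely within Sham. Col8a1 stood at 1.90, 18.6, 12.6 and 0.737 CPM in Sham, 1.70, 2.19, 3.48 and 3.05 CPM in AD and 64.8, 12.7, 4.22 and 46.5 CPM in AD-HFD. Col8a2 stood at 1.02, 19.3, 11 and 2.85 CPM in Sham, 1.80, 2.10, 2.06 and 0.871 CPM in AD and 32.1, 5.99, 2.34 and 15.6 CPM in AD-HFD. Sham-2, Sham-3 and AD-HFD-1, the libraries with the most choroid plexus transcripts, were high for both, but so was AD-HFD-4, whose choroid plexus sum was 26.4 CPM. Neither passed in AD-HFD against Sham (log2 1.93 ± 0.90 and 0.71 ± 0.82). The part of choroid plexus in these levels was not tested.

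Col7a1, the collagen of the anchoring fibrils of skin, rose from 0.789, 1.63, 1.22 and 0.569 CPM in Sham to 3.68, 10.1, 7.82 and 25 CPM in AD-HFD, with 1.91, 1.84, 11.7 and 2.76 CPM in AD. No AD or AD-HFD library overlapped Sham, and AD-3 was above all AD-HFD libraries but AD-HFD-4. The log2 fold change in AD-HFD against Sham was 3.46 ± 0.76 (11-fold, adjusted p = 0.00753), and 2.77 without AD-HFD-4.

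Of the 5 tested beaded-filament and related collagens, only Col6a2 rose in AD-HFD against Sham (20%, near the 19.7% of all genes). Type VI collagen forms fine filaments around cells and next to basement membranes. Col6a2 stood at 8.50, 12.8, 7.65 and 6.90 CPM in Sham, 6.44, 11.1, 12.6 and 11.1 CPM in AD and 21.0, 34.6, 15.7 and 111 CPM in AD-HFD. AD-HFD lay above both other groups, which overlapped each other. The rise was 2.34 ± 0.54 (5.08-fold, adjusted p = 0.00903), and 1.41 without AD-HFD-4. Its partner and neighbour Col6a1 had a log2 value of 1.77 ± 0.67 (adjusted p = 0.0594), with no overlap between AD-HFD and Sham. Col6a6, a related chain of low level, had 1.64, 0.703, 0.442 and 0.670 CPM in Sham, 0.0693, 0, 0.615 and 0.544 CPM in AD and 0.362, 0.351, 0.188 and 0 CPM in AD-HFD (log2 -1.94 ± 0.78, adjusted p = 0.0743).

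Fibril-associated collagens sit on the surface of larger fibrils, and 2 of 8 rose in AD-HFD against Sham (25%, near the 19.7% of all genes). Col12a1 stood at 6.75, 7.03, 4.59 and 6.73 CPM in Sham, 9.39, 7.41, 25.2 and 9.65 CPM in AD and 15.0, 35.2, 27.9 and 33.2 CPM in AD-HFD. Neither model group overlapped Sham, and AD-3 was the only AD library within the AD-HFD range. It rose by 2.15 ± 0.39 (4.43-fold, adjusted p = 0.00401), and here the value without AD-HFD-4 was 2.05.

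Col16a1 stood at 9.49, 13.9, 15.2 and 9.17 CPM in Sham, 21.5, 21.0, 59.2 and 27.9 CPM in AD and 37.8, 83.1, 41.6 and 24.6 CPM in AD-HFD. All libraries of both model groups were above Sham, and AD-HFD-4 was the lowest of its group. It rose by 1.97 ± 0.42 (3.92-fold, adjusted p = 0.00658), and by 2.18 without AD-HFD-4.

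Col19a1, a collagen that interneurons make, had its lower values in the model groups. It stood at 4.0, 2.56, 2.69 and 3.35 CPM in Sham, 1.77, 0.467, 0.954 and 0 CPM in AD and 0.855, 0.797, 2.34 and 0.266 CPM in AD-HFD. Sham lay above both model groups in every library. The log2 fold change in AD-HFD against Sham was -1.55 ± 0.64 (adjusted p = 0.0811), and it passed without AD-HFD-3 (log2 -2.29, adjusted p = 0.0146).

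None of the 3 tested transmembrane collagens passed in any comparison of all 12 libraries by edgeR's quasi-likelihood test. DESeq2 called Col23a1 in AD-HFD against AD (log2 1.25, adjusted p = 0.0378). Col25a1 is a neuronal transmembrane collagen whose shed part is found in amyloid plaques. It stood at 8.24, 5.11, 4.52 and 6.09 CPM in Sham, 12.2, 7.53, 3.02 and 13.9 CPM in AD and 2.27, 2.68, 8.29 and 1.03 CPM in AD-HFD. AD-3 was the lowest AD library and AD-HFD-3 the highest of its group, and all 3 groups overlapped. The log2 fold change of AD against Sham was 0.61 ± 0.56 (adjusted p = 0.546), while AD-HFD against AD gave -1.35 ± 0.57 (adjusted p = 0.138). Without AD-HFD-3 the latter passed, at log2 -2.19 (adjusted p = 0.0128), and so it did without AD-3, at log2 -1.64 (adjusted p = 0.0376). AD-1 and AD-4, its highest libraries, were also those with the highest thalamic marker sums, and the part of brain region was not tested.

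In AD against Sham, no chain passed at an adjusted p under 0.05 by edgeR's quasi-likelihood test, while 3.07% of all genes rose and 3.16% fell. At an unadjusted p under 0.05, 8 chains were higher and 3 lower, against 13.3% and 10.7% of all genes. The 4 AD libraries lay entirely above Sham for 10 chains and entirely below for 2, against 10.3% and 11.3% of all genes. The median log2 fold change was 0.37 over the chains and 0.06 over all genes. DESeq2 called 7 chains, 5 higher and 2 lower, which is 14.6% of those tested, against 13.8% of all genes. By edgeR, 3 chains passed without AD-3 (with 12.1% of all genes called), 1 without AD-HFD-2 (4.9%) and 4 without AD-HFD-3 (11.8%) or AD-HFD-4 (9.34%), and none without each of the others. With the 3 libraries of high thalamic markers left out, 7 chains passed against the 1 remaining AD library, which is then assumed to vary like the other groups, with 6.21% of all genes called.

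The chains with the smallest p in AD against Sham were Col2a1 and Col16a1 among the higher and Col9a1 and Col19a1 among the lower. Col2a1, the fibrillar collagen of cartilage, had 0.643, 0.511, 0.851 and 0.167 CPM in Sham, 1.32, 2.71, 1.02 and 3.23 CPM in AD and 0.460, 1.27, 0.406 and 0.432 CPM in AD-HFD. AD lay above Sham in every library, and AD-HFD stayed within the Sham range except for AD-HFD-2. The log2 value was 1.92 ± 0.53 (adjusted p = 0.0538), with the call reached without AD-3, AD-HFD-3 or AD-HFD-4 (adjusted p 0.0206 to 0.0481). Col16a1 had a log2 value of 1.44 ± 0.41 (adjusted p = 0.0596; 0.0432 without AD-HFD-2 and 0.0396 without AD-HFD-4). Col9a1, a chain of the cartilage collagen type IX, had 1.87, 1.5, 1.12 and 1.17 CPM in Sham, 0.139, 0.175, 0.985 and 0.218 CPM in AD and 0.986, 0.414, 1.00 and 0.333 CPM in AD-HFD. AD-3 was the AD library nearest to Sham, and Sham overlapped neither group. The log2 value of Col9a1 was -1.87 ± 0.55 (adjusted p = 0.0653), -2.98 without AD-3 (adjusted p = 0.00356), and it also passed without AD-HFD-3 (adjusted p = 0.0472). Col19a1 had a log2 value of -1.98 ± 0.67 (adjusted p = 0.0976; 0.0454 without AD-HFD-3). Col4a1 and Col4a2 had log2 values of 2.07 ± 0.71 and 1.63 ± 0.65 (adjusted p = 0.102 and 0.150). Without AD-HFD-4 both passed (adjusted p = 0.0433 and 0.0483), and Col4a1 also passed without AD-HFD-3 (adjusted p = 0.0441) and by DESeq2 (adjusted p = 0.0214).

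What the diet adds within the model was examined as AD-HFD against AD, where no chain passed, and 0.0106% of all genes rose and 0% fell by edgeR's quasi-likelihood test. At an unadjusted p under 0.05, 22 chains were higher and 4 lower, against 17.1% and 13.4% of all genes. The AD-HFD libraries lay entirely above AD for 7 chains (Col1a2, Col3a1, Col5a3, Col6a2, Col8a1, Col8a2 and Lamb1) and entirely below for 0, against 2.72% and 2.74% of all genes. The median log2 fold change was 0.95 over the chains and 0.04 over all genes, and 39 of the 48 values were positive. DESeq2 called 19 chains, 17 higher and 2 lower, beside 3311 genes in all. The count rested on AD-3 and AD-HFD-3: by edgeR, 24 chains passed without AD-3 (21 higher and 3 lower, with 30.3% of all genes called) and 18 passed without AD-HFD-3 (16 higher and 2 lower, with 27.6% of all genes called), while none passed without any other library. AD-3 was the highest AD library for 27 of the 48 tested chains, and AD-HFD-3 the lowest of its group for 21.

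The smallest p in AD-HFD against AD belonged to Col3a1 and Col6a2 among the higher chains, at log2 2.86 ± 0.63 and 2.14 ± 0.53 (adjusted p = 0.0605 for both). They passed without AD-3 (log2 3.22 and 2.25) and without AD-HFD-3 (log2 3.09 and 2.43). Among the lower chains it belonged to Col2a1, at log2 -1.67 ± 0.52 (adjusted p = 0.0729; 0.0173 without AD-3), and Lamb3, at log2 -1.64 ± 0.61 (adjusted p = 0.104). Without AD-HFD-3, Lamb3 passed at log2 -2.07 (adjusted p = 0.0423), and without AD-3, its highest library, the value was -0.57 (adjusted p = 0.302). Col4a1 had a log2 value of 2.70 ± 0.72 and Lamc1 one of 1.87 ± 0.46 (adjusted p = 0.0614 and 0.0605), and both passed without AD-3 (log2 3.48 and 2.42) and without AD-HFD-3 (log2 3.04 and 2.11). For all 21 chains that rose in AD-HFD against Sham, the AD-HFD against AD value was positive, between 0.34 and 2.86, and for 19 of them the AD against Sham value was positive. The 3 comparisons share their libraries, so these values are not independent of each other.

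Genes that make these chains, matrix receptors and other basement membrane proteins were counted in the same fit. In AD-HFD against Sham, 19.7% of all genes rose and 12.9% fell. Of 24 tested genes for collagen folding and cross-linking, 17 rose and 1 fell in AD-HFD against Sham. Serpinh1, the collagen chaperone of the endoplasmic reticulum, rose by 2.74 ± 0.40, Lox, the enzyme that cross-links collagen, by 5.62 ± 0.97 and Plod3, a lysyl hydroxylase, by 1.55 ± 0.27 (adjusted p = 0.00212, 0.00333 and 0.00343). Adamts3, a protease that trims procollagen, was the gene that fell, by 1.5. Of 15 tested matrix receptors, most of them for collagen or laminin, 9 rose and 0 fell. The integrins Itga9 (2.16 ± 0.24), Itga2 (5.77 ± 1.09) and Itgb1 (2.20 ± 0.37) had the smallest p. Of 11 other basement membrane proteins, 7 rose and 0 fell. The smallest p belonged to Nid1 (3.14 ± 0.50), a nidogen that links laminin to type IV collagen, Fn1 (3.55 ± 0.57), fibronectin, and Nid2 (3.02 ± 0.52), and the highest log2 value was that of Tinagl1 (3.64 ± 0.68).

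In AD against Sham, Lox rose by 3.97 ± 0.91 and Adamts3 fell by 1.92 (adjusted p = 0.0284 and 0.0210). Of the receptors, Itga9 (1.67 ± 0.24) and Itga7 (0.63 ± 0.17) rose and Itga11 (log2 -2.48 ± 0.36) fell. Sparc, a collagen-binding matrix protein, rose by 2.28 ± 0.36 and was the only called gene of the 11 other basement membrane proteins. Among all genes, 3.07% rose and 3.16% fell in AD against Sham. None of the 50 tested genes of these lists passed in AD-HFD against AD, where 0.0106% of all genes rose and 0% fell.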

How the data were processed

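Brain RNA was measured in 12 libraries, grouped and numbered as their titles and library names state. Per the labels' protocols, RNA was extracted with TRIzol and libraries came from a Yeasen mRNA kit. Both the organism field and the identifiers of the genes point to rat, although other label text says mouse, and rat was assumed. The authors deposited raw counts per gene. FastQC and Trimmomatic, with no version, are listed in the submitters' processing notes. How reads were aligned and counted, on which genome build and with which strand setting is not given in the sources used here. Reads of overlapping genes on opposite strands therefore cannot be told apart.

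The members and lists were chosen with earlier results of these data known. The edgeR package (4.0.16, R 4.3.3) kept genes by filterByExpr (18850 of 31177, 9127 of the latter being unnamed new loci), scaled them by TMM and fitted them by the non-legacy quasi-likelihood method with 1 mean per group over all 12 libraries. The threshold was an adjusted p under 0.05 (Benjamini-Hochberg, over all tested genes). The common dispersion had a square root of 0.415. Alternatives were DESeq2 1.42.0, voom in limma 3.58.1, other scalings and filters, a replicate block and left-out libraries. The fit was tested on simulated data. No pair of libraries of the same group agreed within sampling noise (chi-square per gene at least 18.7), and pairs across groups were not compared this way. Values in every library were given for members called in any comparison, the 2 smallest p in each direction where fewer than 2 were called, and fixed chains (Col1a1, Col1a2, Col3a1, Col4a1, Col4a2, Col18a1, Col25a1, Lama1, Lama2, Lama4, Lama5, Lamb1, Lamb2, Lamc1). Those of Col8a1 and Col8a2 and the endothelial ratios were chosen after the values were seen. The values of 1 tested chain are not reported here. Promoter windows came from RefSeq on GRCr8.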

Additional observations from a re-analysis of the deposited data

Results flagged for a closer look

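In 15 of 84 groups of 4 libraries that were examined (the 28 chains given by the naming rule, in each of 3 groups), 1 library lay so far from the other 3 that its gap, as a share of the group's range, exceeded the 95% limit of Dixon's test. Chance marks about 5% of groups, and chains of the same library are not independent.

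AD-3 was the distant library for 6 chains among the AD libraries, the highest in each. It stood at 11.7 CPM for Col7a1 (others 1.84 to 2.76), at 0.985 CPM for Col9a1 (others 0.139 to 0.218), at 25.2 CPM for Col12a1 (others 7.41 to 9.65), at 33.8 CPM for Lama4 (others 11.3 to 15.1), at 19.5 CPM for Lamb3 (others 2.57 to 5.01) and at 100.4 CPM for Lamc1 (others 30.3 to 41.6).

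AD-HFD-4 was the distant library for 4 chains in its group. It stood at 683 CPM for Col4a2 (others 62.7 to 167), at 55.3 CPM for Col15a1 (others 3.31 to 7.33), at 202 CPM for Col18a1 (others 24.9 to 53.1) and at 171 CPM for Lamb1 (others 58.7 to 64.2). AD-HFD-2 was distant for Col2a1, at 1.27 CPM (others 0.406 to 0.460), and for Col5a3, at 44.3 CPM (others 19.2 to 21.1). AD-HFD-1 was distant for Lama2, at 43.9 CPM (others 9.38 to 13.6).

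Among the Sham libraries, Sham-2 was distant for Col18a1, at 13.7 CPM (others 8.20 to 9.04), and Sham-3 for Col12a1, at 4.59 CPM (others 6.73 to 7.03), where it was the lowest.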

How the results depend on the processing

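Over the 24 alternatives run, no named chain reversed its direction in a comparison it was named for, where it was tested (Col6a6 in 23). The 21 calls of AD-HFD against Sham became 0 without Sham-2, Sham-3, AD-HFD-1 and AD-HFD-2, where fewer libraries and no called gene remained, and 15 to 27 when 1 library was left out. Of the 21 chains, 13 lost their call only in that 4-library alternative and 8 in others too. In AD against Sham, the count of 0 became 7 with DESeq2 (13.8% of all genes called), 1 with limma voom (4.74%), 4 in a fit on the compared groups alone (13.1%), 0 to 4 with 1 library left out, 7 with AD-3 as the only AD library (6.21%) and 6 without AD-HFD-3 and AD-HFD-4 (14.1%). In AD-HFD against AD, the count of 0 became 19 with DESeq2 (17.6%), 0 to 24 with 1 library left out and 11 without AD-HFD-3 and AD-HFD-4 (9.56%). For these changes in count beyond the smaller number of libraries, the cause was not tested.

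Same-numbered libraries did not deviate together, with correlations of their deviations from the group means from -0.317 to 0.0947. No pairing by number was seen, but a weak one could be hidden by the large differences between libraries. With the replicate block the counts were 0, 0 and 18, and 3 calls of AD-HFD against Sham were lost (Col4a4, Lama1 and Lamb2). The planned ratio of partner chains per kilobase of coding length was not run, because no lengths were used. With 4 libraries a group and this spread, a chain that missed the threshold is not shown to be unchanged, and chains below about 1 CPM rest on few counts. Cortical neuron markers were lower than in every Sham library in all AD libraries and in AD-HFD-1, AD-HFD-2 and AD-HFD-4. Brain region and group therefore cannot be told apart in either comparison with Sham. The same holds for AD-HFD against AD. There AD-1, AD-2 and AD-4 had thalamic marker sums of 644 to 2148 CPM, against 179 CPM in AD-3 and 130 to 266 CPM in AD-HFD. The AD-2 sum came mostly from Slc17a6 and Calb2, at 278 and 213 CPM.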

Other observations

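The shares of the laminin alpha chains in their summed counts are given as a description without a test and not per length. Lama2 made up 34.5% ± 15.0 of the counts of Lama1, Lama2, Lama4 and Lama5 for Sham, 18% ± 7.98 for AD and 15.2% ± 10.3 for AD-HFD (SD, n = 4). The Sham mean rested on Sham-2 (49.6%) and Sham-3 (44.7%), the Sham libraries with high choroid plexus marker sums, while Sham-1 (19.2%) and Sham-4 (24.3%) lay within the AD range of 8.82% to 26.3%. Lama5 made up 19.7% ± 1.74, 31.0% ± 6.38 and 30.1% ± 4.56 in the same order, and all 8 AD and AD-HFD libraries, from 25.2% to 38.0%, were above the Sham maximum of 22.1%. Among the beta chains, Lamb3 made up 18.1% of the summed counts in AD-3 and 0.423% in AD-HFD-4, the highest and the lowest of the 12 libraries.

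Several members are neighbours in the RefSeq order of genes, among them Col3a1 with Col5a2 and Col6a1 with Col6a2. Neighbours did not always share a call: in AD-HFD against Sham, Col6a2 rose and Col6a1 had a log2 value of 1.77 ± 0.67 (adjusted p = 0.0594), while Col3a1 and Col5a2 both rose. The difference between neighbours was not tested.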
